A study of Mus musculus with 4 samples.

Results

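The miR-183 cluster is a group of microRNAs (miRNAs, short RNAs that repress messenger RNAs) encoded side by side on mouse chromosome 6. Its members were taken by probe name, and 4 of the 696 miRNA probes on the arrays belong to it: mmu-miR-183, its minor arm mmu-miR-183*, mmu-miR-96 and mmu-miR-182, written here without the prefix. No probe for the minor arms of miR-96 and miR-182 is on the arrays. RNA came from molar tooth germs of the lower jaw of embryos of the outbred ICR strain. The stages were E11, E12, E14 and E16, where the number is the embryonic day. All embryos were untreated, and no source used here says how many embryos were behind each RNA sample. Each stage was measured on 1 single-colour Agilent miRNA array, so differences between stages have no replicate check and no p-value. Errors printed with ± are the measurement errors stated for each array signal, or combinations of them, and cover no variation among embryos.

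The 3 precursors of the cluster are known to be transcribed together. The cluster is best known from sensory cells, among them inner ear hair cells, photoreceptors and neurons of sensory ganglia, and it is also expressed in epithelia. Base changes in the seed of miR-96 cause progressive hearing loss in humans and mice. A miRNA recognises its targets mainly through the seed, which pairs with complementary letters in the messenger RNA.

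The mature sequences are shown because the members differ in how far they share a seed and a body. They are RefSeq's (assembly GRCm38.p6, minus strand of chromosome 6), 5′ to 3′, with the seed, bases 2 to 8, in capitals.
miR-183: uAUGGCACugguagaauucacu
miR-96: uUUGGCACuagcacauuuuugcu
miR-182: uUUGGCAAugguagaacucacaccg
miR-183*: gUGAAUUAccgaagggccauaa
No pair of these has the same seed. Counted from 1 at the 5′ end, the seeds of miR-96 and miR-182 differ by C8A, and those of miR-183 and miR-96 by A2U. The letters that complement the seeds are GUGCCAU for miR-183, GUGCCAA for miR-96 and UUGCCAA for miR-182. Outside the cluster, RefSeq's table holds 1 other mature miRNA with the seed of miR-96, miR-1271-5p, and no probe of that name is on the arrays. Beyond the seed, miR-182 resembles miR-183 rather than miR-96. Aligned from their first base, miR-183 and miR-182 are identical at 18 of 22 positions (81.8%), with the changes A2U, C8A, U17C and U22A, and they share the run UGGUAGAA from position 9. miR-96 is identical to miR-183 at 13 of 22 positions (59.1%) and to miR-182 at 12 of 23 (52.2%). The array probes' own sequences were not used here, and whether the probes of miR-183 and miR-182 take up each other's miRNA was not tested.

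The hairpins show where the measured arms lie, with those arms in capitals and the order that of transcription.
Mir183, chr6:30169668-30169737: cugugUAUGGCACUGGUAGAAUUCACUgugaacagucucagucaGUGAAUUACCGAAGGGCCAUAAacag
Mir96, chr6:30169446-30169551: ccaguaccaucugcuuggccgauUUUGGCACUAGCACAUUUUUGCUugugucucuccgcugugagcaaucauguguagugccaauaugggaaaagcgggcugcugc
Mir182, chr6:30165918-30165992: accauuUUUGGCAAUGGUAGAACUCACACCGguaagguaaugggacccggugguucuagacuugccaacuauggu
Mir183 and Mir96 are 116 bases apart and Mir182 lies a further 3453 bases downstream, within 3820 bases in all. In RefSeq's annotation the 3 hairpins lie inside 1 long non-coding RNA gene, Mirc35hg.

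miR-183, miR-96 and miR-182 were detected at every stage, and miR-183* at E11, E14 and E16. The arrays detected 30.0% to 35.9% of all miRNA probes, with a median error of 9.04% to 9.55% of a detected signal. The lowest detected signals were between 5.48 and 7.43. For the labelled tissue, the epithelial miR-205 and the mesenchymal miR-199a-3p, miR-199a-5p and miR-214 were detected at all 4 stages, and none of the 7 muscle miRNAs at any.

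miR-96, the member whose seed is known from hereditary deafness, had a deposited signal of 171 ± 13.1 at E11, 313 ± 23.3 at E12, 286 ± 21.1 at E14 and 672 ± 48.3 at E16. Its signal was highest at E16, lowest at E11, and at E12 and E14 the errors overlap. miR-183, whose hairpin is the first of the cluster in the direction of transcription, had signals of 262 ± 19.9, 355 ± 26.7, 359 ± 26.7 and 383 ± 28.6. Its signal was lowest at E11 and lay within errors at the other 3 stages. miR-182, from the last hairpin, had signals of 163 ± 14.8, 174 ± 16.2, 215 ± 19.0 and 229 ± 20.4. No 2 stages next to each other in that order differed by more than 2 combined errors. Its signal did pass 2 combined errors above E11 at E14 (log2 difference 0.40 ± 0.18) and at E16 (0.49 ± 0.18). The minor arm miR-183*, which is known to be the less abundant product of the Mir183 hairpin, had signals of 7.94 ± 1.88 at E11, 8.57 ± 1.97 at E14 and 9.80 ± 2.29 at E16. These lay 1.45 to 1.51 times above the lowest detected signal of their arrays and within errors of each other. Probes differ in affinity, so these signals do not rank the members against each other.

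**Figure D1:**
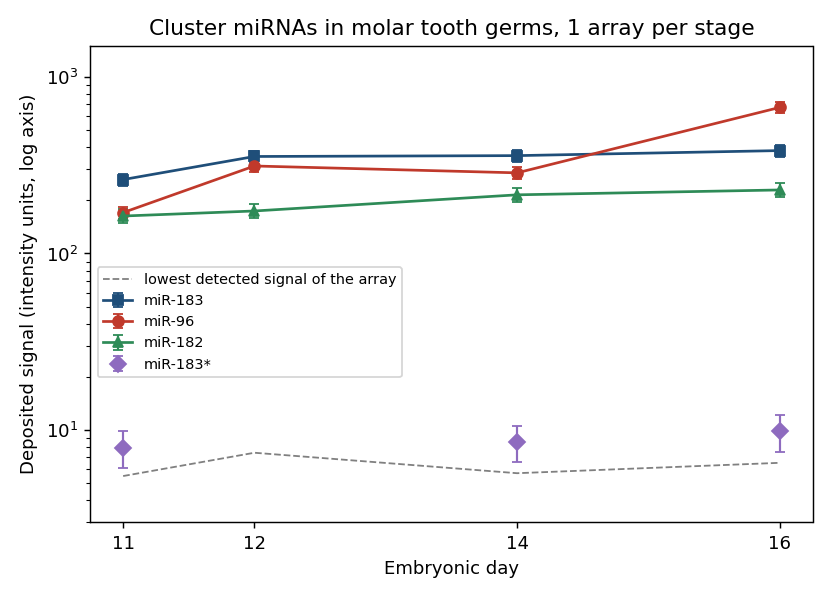
Deposited signal of each cluster miRNA (log axis, intensity units not scaled between arrays) against embryonic day, with stated measurement errors as bars, and the lowest detected signal of each array as a dashed line; there is 1 array per stage. miR-96 stands at 672 at E16 and 286 at E14, while miR-183 stays between 355 and 383 from E12 on, and miR-183* lies just above the dashed line with no point at E12.

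The deposited signals are not scaled between arrays, and most miRNAs had a higher signal at E16 than at E11. The log2 signals were therefore taken relative to the 75th percentile of the 197 miRNAs detected on all 4 arrays. On this scale the level of miR-96 was -0.55 at E11, -0.34 at E12, -0.88 at E14 and -0.01 at E16. It was highest at E16. Its E14 level was below that at E11 by 0.33 ± 0.15, a difference that depended on the scaling: E14 minus E11 was -0.06 with the median, -0.17 with quantile normalization and 0.75 on the deposited signals. miR-183 had levels of 0.07, -0.17, -0.56 and -0.82, in falling order, where E11 and E12, and E14 and E16, did not differ by more than 2 combined errors. miR-182 had levels of -0.62, -1.19, -1.30 and -1.56, where only the step between E12 and E11 passed 2 combined errors. Scaled levels of miR-183* were -4.98 at E11, -5.95 at E14 and -6.11 at E16, the last pair within errors. The falling order of miR-183, miR-182 and miR-183* does not hold on the deposited signals, which were higher at E16 than at E11 for all 3. With the median and with quantile normalization it held for miR-183 only. There miR-182 at E14 minus E12 was 0.13 and 0.04, and miR-183* at E16 minus E14 was 0.09 and 0.19, all within errors of 0.

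The comparison of E16 with E11 asks how the cluster differs between the bell stage and the first thickening of the dental epithelium. miR-96 was 1.46-fold higher at E16 (log2 difference 0.54 ± 0.15), and it was higher under each of 6 scalings between arrays, with differences of 0.51 to 1.98. Those 6 were the scaling above, the same percentile over all probes, the median, quantile normalization, the authors' value table and the signals as deposited. miR-183 was 1.85-fold lower (-0.89 ± 0.15) and miR-182 1.92-fold lower (-0.94 ± 0.18), and both turned positive on the deposited signals, at 0.55 and 0.49. miR-183* was 2.19-fold lower (-1.13 ± 0.48), and it too turned positive on the deposited signals, at 0.30, which is within its error of 0. By a rule of size, at least 2-fold between stages, 0 of the 4 members were higher and 1, miR-183*, was lower. The same size was reached upward by 13.7% and downward by 37.6% of the 205 miRNAs that both arrays detected, so a count of 1 in 4 is no result about the members.

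The median of all 205 miRNAs was -0.74 on the scaled levels and 0.69 on the deposited signals, and differences relative to that median are the same under each scaling that shifts an array by a constant. miR-96 was 1.29 above the median, and 161 of the 205 miRNAs (78.5%) had a lower difference. miR-183 was 0.15 below it, a distance smaller than its error, at a place where 42.0% of the miRNAs had a lower difference. miR-182 was 0.20 below the median (38.5% lower) and miR-183* 0.39 below it (31.7% lower). The members other than miR-96 thus moved about as the middle of all miRNAs did. Quantile normalization, which is no constant shift, left 30.7% of the miRNAs below miR-183 and 11.2% below miR-183*, with 78.5% still below miR-96.

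**Figure D2:**
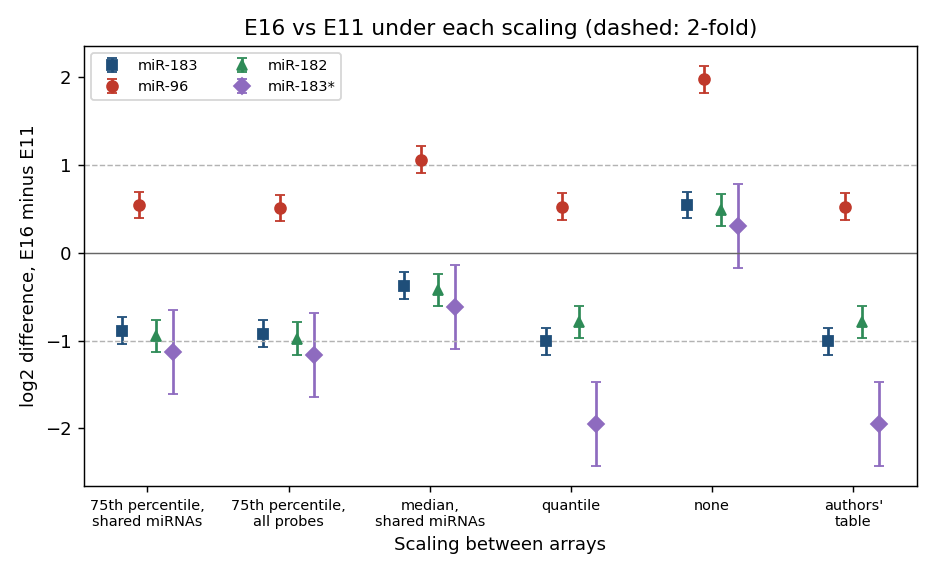
The log2 difference of each member, E16 minus E11, under each of the 6 scalings between arrays, with combined stated errors as bars and 2-fold marked by dashed lines. miR-96 lies above 0 in every column, from 0.51 to 1.98, whereas miR-183, miR-182 and miR-183* lie below 0 in all columns but the unscaled one.

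A ratio of 2 members on the same array needs no scaling, and its change shows how unequally they changed. From these ratios miR-96 moved apart from the rest of its cluster. Between E16 and E11 the difference of miR-96 exceeded that of miR-183 by 1.43 ± 0.22 on the log2 scale, a 2.70-fold change of their ratio and 6.64 times its combined error. It exceeded that of miR-182 by 1.49 ± 0.24 (2.81-fold) and that of miR-183* by 1.67 ± 0.50 (3.19-fold). Quantile normalization gave 1.53, 1.32 and 2.48 for the same 3 pairs.

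The remaining pairs did not separate by more than their errors. miR-182 minus miR-183 was -0.05 ± 0.24 for E16 against E11, with an interval of 2 combined errors from -0.53 to 0.42. The arms of the Mir183 hairpin, miR-183* minus miR-183, gave -0.24 ± 0.50, with an interval from -1.25 to 0.77, which leaves room for a change of more than 2-fold. miR-183* minus miR-182 gave -0.19 ± 0.51. With quantile normalization that last pair stood at -1.16, beyond 2 combined errors. In all, 6 pairs of members were compared. Between E16 and E11 miR-182 and miR-183 had the smallest difference among them, but within errors of the other pairs without miR-96. Between E14 and E12 they did not, with 0.29 ± 0.24 against -0.15 ± 0.21 for miR-96 minus miR-183.

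**Figure D3:**
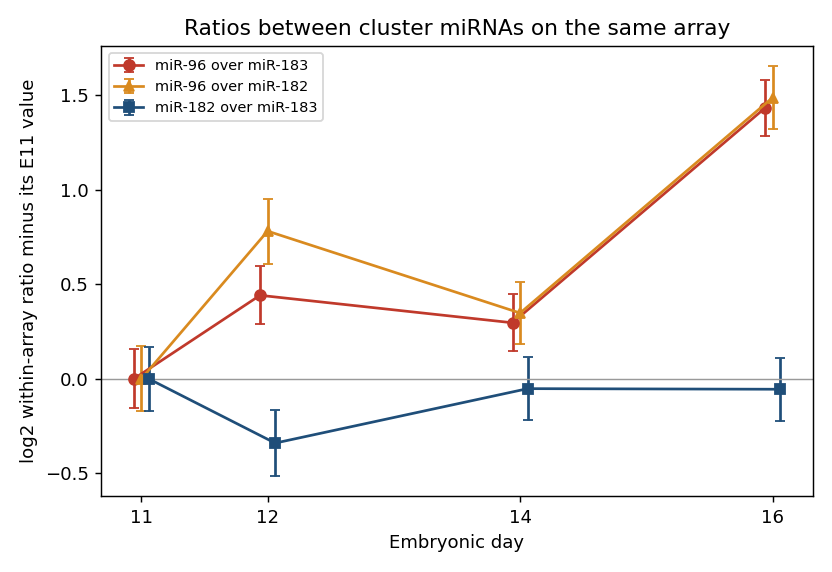
The log2 ratio of 2 cluster miRNAs on the same array, minus its value at E11, against embryonic day, with the stated error of each stage's ratio as bars. Both ratios with miR-96 on top stand at 1.43 and 1.49 at E16, while miR-182 over miR-183 stands at -0.05.

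The step between E12 and E11 covers the thickening and the early bud. The deposited signal of miR-96 was 313 at E12 and 171 at E11. On the scaled levels its difference was 0.21 ± 0.15, within 2 errors of 0, against -0.23 ± 0.15 for miR-183 and -0.57 ± 0.19 for miR-182. All 3 differences were positive on the deposited signals, at 0.88, 0.43 and 0.095, the last within its error of 0. Neither a 2-fold higher nor a 2-fold lower member was found, where 9.45% and 8.46% of the 201 miRNAs passed in those directions. Relative to the median of all miRNAs, miR-96 was 0.40 above and miR-182 0.38 below, with miR-183 at -0.04. The ratio of miR-96 to miR-182 was higher at E12 by 0.78 ± 0.24 and that to miR-183 by 0.44 ± 0.22. The latter was barely past 2 combined errors, and within them with quantile normalization and in the authors' table. The difference of miR-182 minus miR-183 was -0.34 ± 0.24, within 2 errors of 0.

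At E12 miR-183* was flagged as not detected, and its level there has only a bound. With the lowest detected signal of the E12 array, 7.43, as an assumed floor, it was at least 1.70-fold lower at E12 than at E11 on the scaled levels. With the floor at the 5th percentile of that array's detected signals this was only 1.02-fold, inside the error of the E11 signal. Both floors come from other probes and are no measured limit for miR-183*. On the deposited signals no bound is given, since the floor of 7.43 lay within the error of the E11 signal, 7.94 ± 1.88. Between E14 and E12 no bound could be given on the scaled levels, as the E14 level lay under that floor.

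Between E14 and E12, from bud to cap, the members stayed near the middle of all miRNAs. The scaled difference was -0.39 ± 0.15 for miR-183, -0.54 ± 0.15 for miR-96 and -0.11 ± 0.19 for miR-182, around a median of -0.40 over 212 miRNAs. Of these, 50.0% lay below miR-183, 42.9% below miR-96 and 64.2% below miR-182. On the deposited signals they were 0.016 for miR-183, -0.13 for miR-96 and 0.30 for miR-182 around a median of 0.013. There miR-183 and miR-182 turned positive, both within 2 errors of 0. Again 0 members passed 2-fold upward and 0 downward, where 12.7% and 15.1% of all miRNAs did. The ratio of miR-96 to miR-183 moved by -0.15 ± 0.21 and that to miR-182 by -0.43 ± 0.24, both within 2 errors of 0.

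The step between E16 and E14, from cap to bell, held most of the separation of miR-96 from miR-183 and miR-182. miR-96 had a deposited signal of 672 ± 48.3 at E16, against 286 ± 21.1 at E14, and its scaled difference was 0.88 ± 0.15, or 1.83-fold higher. Of 231 miRNAs detected at both stages, 205 (88.7%) had a lower difference, and 188 (81.4%) with quantile normalization and in the authors' table. In contrast miR-183 stood at -0.26 ± 0.15, miR-182 at -0.26 ± 0.18 and the minor arm at -0.16 ± 0.47, each within 2 errors of 0, and on the deposited signals they stood at 0.095, 0.092 and 0.19. With quantile normalization and in the authors' table, however, miR-183 was at -0.55 ± 0.15, beyond 2 errors, with 20.8% of miRNAs below it. On the scaled levels the median of all miRNAs was -0.06, and 35.1% to 42.4% of them lay below these 3 members. The ratio of miR-96 to miR-183 was higher at E16 by 1.14 ± 0.21 and the ratio to miR-182 by 1.14 ± 0.23. That of miR-96 to miR-183* was higher by 1.04 ± 0.50, but by 0.51, within 2 errors of 0, with quantile normalization and in the authors' table.

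By the rule of size 0 members were higher and 0 lower between E16 and E14 on the scaled levels, where 7.36% and 13.4% of all miRNAs passed. miR-96 lay just under that size, and it passed with the 75th percentile over all probes (1.03), with the median (1.13) and without scaling (1.23). Under those scalings in turn, 28, 30 and 36 of the 231 miRNAs passed upward. Quantile normalization and the authors' table placed miR-96 at 0.70.

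**Figure D4:**
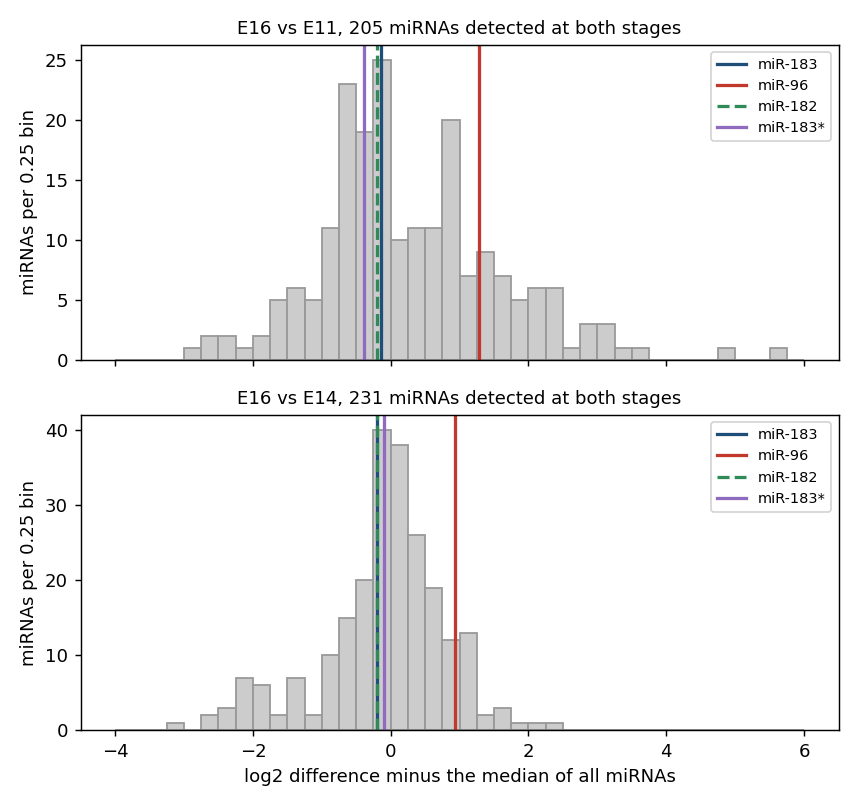
Histograms of the log2 difference of all miRNAs detected at both stages, minus their median, for E16 vs E11 (205 miRNAs) and E16 vs E14 (231 miRNAs), with the 4 members as vertical lines. miR-96 lies to the right at 1.29 and 0.94, and the other 3 members lie between -0.39 and -0.10.

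The courses over the 4 stages were compared with those of the 194 other miRNAs detected on all arrays, by the Euclidean distance between log2 courses after each was centred on its mean. This distance does not change with a constant scaling, and over 4 stages it is a description only. The course nearest to miR-183 was that of miR-345-5p (distance 0.04), then miR-103 (0.09), miR-1839-3p (0.12), miR-300 (0.15) and miR-652 (0.16). miR-345-5p had signals of 188 at E11, 253 at E12, 247 at E14 and 269.6 at E16, an early difference followed by a plateau. Nearest to miR-182 were miR-15b (0.09), miR-181b (0.18), miR-212 (0.19), miR-1944 (0.19) and miR-17* (0.20).

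Nearest to miR-96 were miR-140 (0.15), miR-101b (0.19), miR-434-5p (0.20), miR-126-3p (0.26) and miR-15a (0.33). The cartilage-associated miR-140 had signals of 26.0, 51.5, 44.0 and 117 over the stages, and the endothelial miR-126-3p 226, 419, 411 and 757. Both had a higher deposited signal at E12 than at E11 and again at E16 than at E14. Their lower deposited signals at E14 than at E12 lay within the combined log2 errors, 0.28 for miR-140 and 0.15 for miR-126-3p. No miRNA is named for more than 1 member. From miR-183 to miR-182 the distance was 0.27, with 13 of the 194 other miRNAs nearer to miR-183 and 7 nearer to miR-182. From miR-183 to miR-96 it was 1.08, with 112 of them nearer to miR-183 and 80 nearer to miR-96.

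Markers of other cells were read beside the cluster, from lists that do not contain it. Of 7 epithelial miRNAs, the miR-200 family with miR-203 and miR-205, 6 were detected at E11 and all 7 at E12, E14 and E16, with summed deposited signals of 1795, 3382, 5363 and 9364. Between E16 and E11 the epithelial list had a median of 1.35 on the scaled levels, with 4 of 6 past 2-fold upward and 0 downward. Each of the 6 had a larger difference than any cluster member, although miR-200b (0.60 ± 0.16) and miR-205 (0.66 ± 0.15) exceeded miR-96 (0.54 ± 0.15) by less than their errors. Set against the list's median, miR-96 was at -0.80, miR-183 at -2.24 and miR-182 at -2.29. Between E16 and E14 the list's median was 0.55 and miR-96 lay 0.32 above it, with 3 of the 7 higher than miR-96. Those 3 were miR-203 (2.42 ± 0.16), miR-141 (2.15 ± 0.18) and miR-200a (1.02 ± 0.17). miR-183, miR-182 and miR-183* lay below all 7.

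Neural cells are a further known source of the cluster, and of 15 neural probes 4, 5, 4 and 6 were detected at E11, E12, E14 and E16, with summed signals of 209, 433, 256 and 498. The neuronal miR-124, miR-9 and miR-9* were not detected at any stage. Of the 4 detected at every stage, miR-218 had signals of 87.8, 227, 107 and 247, higher at E12 and E16. miR-128, with 14.6, 39.7, 35.6 and 40.2, was also highest at E12 and E16, but its E14 signal was close to both. The others did not follow that course, with 79.2, 80.9, 89.9 and 113 for miR-212 and 27.5, 26.2, 23.4 and 35.4 for miR-7a. miR-137 had detected signals only at E12 (59.2) and E16 (47.5), and miR-219 only at E16 (15.1). Between E16 and E14 miR-96 had a larger difference than each of the 4 neural miRNAs detected at both stages, whose median was 0.10, but miR-218, at 0.85 ± 0.17, was within errors of miR-96.

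Among the blood and vessel lists, both endothelial probes were detected at all stages, with summed signals of 239.8, 446, 427 and 791, and their median difference between E16 and E14 was 0.64. Erythroid miR-451 had signals of 404, 422, 665 and 1214. Of 5 leukocyte probes 0, 1, 1 and 2 were detected, with sums up to 147 at E16. Of the mesenchymal list 7 of 8 probes were detected at every stage, with summed signals of 10982, 17094, 11293 and 13020 and a median difference of 0.03 between E16 and E14. In that step 1 of the 7, miR-140 (1.05 ± 0.23), passed 2-fold upward and 0 downward. miR-140 and the leukocyte miR-223 (0.98 ± 0.29) stood above miR-96 (0.88 ± 0.15) by less than their errors. The other mesenchymal miRNAs stood below miR-96. Endothelial miR-126-5p (0.75 ± 0.42) was within errors of miR-96, and miR-126-3p stood lower, at 0.52 ± 0.15. In tissue RNA, a change in the share of a cell type and a change in the level per cell cannot be told apart. The part of these markers' cells in the separation of miR-96 was not tested.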

How the data were processed

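The authors deposited, per the file headers, a total gene signal (intensity), its error and a detection flag for 718 features of each array, 696 of them miRNAs, with undetected features at 0.1. Labelling was with Cy3 from 100 ng of RNA, per the labels' protocols. No source used here states the software, the array's design or its background method. The authors' deposited value table holds intensity scaled between arrays, and quantile normalization of all features gave its detected values within 0.1%, so it and quantile normalization are nearly the same setting. Its method is not stated, and it served as an alternative.

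Control features were left out. Signals were taken as log2, minus the 75th percentile over the 197 miRNAs that every array detected. A difference is later minus earlier with both stated errors combined. Of the 6 scalings, the others were the median of those miRNAs, the 75th percentile over all probes, the deposited signals as they are, quantile normalization, and the authors' table. Undetected levels were bounded by the array's lowest detected signal, as an assumed floor. The 4 members were named as the subject. For each member detected on all arrays the 5 nearest courses were named, and from the marker lists the members of highest level; miR-141, miR-203, miR-200a, miR-137, miR-219, miR-7a, miR-124, miR-9, miR-9* and miR-214 were named after their values were seen. Members and lists were chosen with earlier results of these data known. Python 3.11.15, numpy 2.4.6 and pandas 2.3.3 were used. The scalings other than the authors' table were run on simulated data, with changes read relative to the unchanged features. A constant shift of an array cancels there, so that check does not show which scaling is right for these arrays. All 4 members matched RefSeq's miRNA table; unsuffixed names were taken as the 5p arms and miR-183* as the 3p arm.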

Additional observations from a re-analysis of the deposited data

How the results depend on the processing

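With 1 array per stage, stated errors and the scaling limit every difference. No paired analysis was possible because each stage has 1 sample and no test. The cause of the shifts below was not tested, apart from scalings that move all members of an array alike. For E16 vs E11, median scaling gave -0.37 for miR-183, -0.61 for miR-183*, 1.06 for miR-96 and -0.43 for miR-182, with 1 member at least 2-fold higher and 0 lower. Of all 205 miRNAs, 44 were 2-fold higher and 35 lower with that scaling. No scaling gave 0.55, 0.30, 1.98 and 0.49 for the members in that order, also with 1 higher and 0 lower, where 92 of all 205 miRNAs were higher and 9 lower. Without scaling miR-183, miR-183* and miR-182 thus all turned positive, miR-183* within its error of 0. Quantile normalization and the authors' table both gave -1.95 for miR-183*, and 2 members lower. In both, 33 of all 205 miRNAs were higher and 64 lower. The 1.5-fold rule gave 3 lower, and asking for a signal of 5 errors gave 0, since miR-183* no longer counted. The share of all miRNAs under these rules is not given. None of these counts is a result about the members. Between members, both quantile settings gave 2.48 for miR-96 minus miR-183*, 0.21 for miR-182 minus miR-183, -0.95 for miR-183* minus miR-183 and -1.16 for miR-183* minus miR-182. For E12 vs E11, the 75th percentile over all probes gave -0.42 for miR-183 and 0.026 for miR-96, and no scaling 0.43, 0.88 and, for miR-182, 0.095. The bound of miR-183* was 1.07-fold without scaling and 1.02-fold with a floor at the 5th percentile of detected signals, both inside the error of its E11 signal. For E14 vs E12, median scaling gave -0.16 for miR-183, -0.30 for miR-96 and 0.13 for miR-182, no scaling 0.016, -0.13 and 0.30, and both quantile settings -0.19 for miR-183 and -0.34 for miR-96. For E16 vs E14, the 75th percentile over all probes gave -0.10 for miR-183 and 1.03 for miR-96, median scaling -0.011 and 1.13 with -0.014 for miR-182, and no scaling 0.095 and 1.23 with 0.092 for miR-182. Both quantile settings gave -0.55 for miR-183 and 0.70 for miR-96. The members past the rule of size upward were 1 with the 75th percentile over all probes, with median scaling, with no scaling and with the 1.5-fold rule. Of all 231 miRNAs, 28, 30 and 36 passed 2-fold upward under those scalings in turn. The share under the 1.5-fold rule is not given, and a count of 1 is no result about the members. Between members, both quantile settings gave 0.51 for miR-96 minus miR-183*, 0.29 for miR-182 minus miR-183 and 0.75 for miR-183* minus miR-183. Of the other values recomputed, 45 differences of members, 88 differences between members and 44 counts stayed within their error or, for counts, within 1.5 times. A constant scaling or the 5-error rule cannot move a difference between members, so many of the 88 were fixed in advance. Only both quantile settings, nearly the same setting, could move these, and 14 such values did move. The 5-error rule also cannot move a member's own difference, and many of the counts that stayed were 0 in both settings. The 45, the 88 and the 44 are thus no measure of stability.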
